A study of Mus musculus with 12 samples.

Results

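Cdsn, Strip2 and Acsm3 are the 3 genes described here, out of 55573 genes counted and 15117 genes tested in cultured mouse adipocytes. They were chosen by their measured fall in adipocytes of PPARγ T166A mice (TA) from wild-type adipocytes (WT). Among the 493 genes that fell in TA at an adjusted p under 0.05, had a mean of at least 5 CPM (counts scaled to the size of the library) in WT and did not overlap between the 2 genotypes, they had the largest falls. Their TA and WT values are therefore a description, with no test, and what the choice did not use is their level in the adipocytes of PPARγ T166D mice (TD). All 3 genes passed the filter on low counts.

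RNA was sequenced from adipocytes grown from stromal vascular cells, the non-adipocyte fraction of subcutaneous (inguinal) fat, and differentiated in culture. The cells came from mice homozygous for WT PPARγ, for T166A, in which threonine 166 is replaced by an alanine that cannot be phosphorylated, or for T166D, in which it is replaced by an aspartate meant to mimic the phosphate, with 4 libraries of each genotype. The mice were made by genome editing on a C57BL/6 background (C57BL/6J in the study's methods), carried the mutation in all tissues, and WT littermates served as controls. All cultures received the same adipogenic cocktail of 850 nM insulin, 1 nM triiodothyronine, 0.5 mM IBMX, 125 nM indomethacin and dexamethasone, and were harvested on day 8. No undifferentiated culture was analysed here, and the labels give no source animal for a library, so the spread between libraries may be technical in part.

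PPARγ is the nuclear receptor that drives adipocyte differentiation. It binds DNA as a dimer with RXR, at a direct repeat of the half-site AGGTCA with 1 base between the copies (DR1), and threonine 166 lies in its DNA-binding domain. Cdsn encodes corneodesmosin, a secreted adhesive glycoprotein known from the cornified layer of the epidermis and from hair follicles, where it covers the junctions between dying keratinocytes. Strip2 encodes a striatin-interacting protein, a subunit of the STRIPAK complex that joins the phosphatase PP2A to kinases of the MST family. Acsm3 encodes a mitochondrial enzyme of the medium-chain acyl-CoA synthetase family, which couples fatty acids to coenzyme A before they are oxidized.

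On the GRCm38 genome, Cdsn (ENSMUSG00000039518) lies on the forward strand at chr17:35552128-35557180, with 2 exon blocks of 2678 bases in all. Strip2 (ENSMUSG00000039629) lies on the forward strand at chr6:29917012-29959681, with 21 exon blocks of 8329 bases, and Acsm3 (ENSMUSG00000030935) on the forward strand at chr7:119760923-119787513, with 18 exon blocks of 4936 bases. Strip2 shares chromosome 6 with Pparg itself, which lies at chr6:115360951-115490399. The 150 bases before each start in RefSeq, read on the forward strand of GRCm38.p6, are printed because the mutated residue belongs to a DNA-binding domain and the 3 genes fell together. CCAAT, the box bound by NF-Y, is in capitals (no copy of its reverse complement ATTGG was found in these stretches), and it was chosen for marking after the sequences had been seen.
Cdsn, chr17:35551978-35552127: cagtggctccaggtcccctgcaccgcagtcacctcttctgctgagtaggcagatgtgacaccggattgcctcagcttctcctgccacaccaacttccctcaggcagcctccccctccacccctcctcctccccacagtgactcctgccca
Strip2, chr6:29916863-29917012: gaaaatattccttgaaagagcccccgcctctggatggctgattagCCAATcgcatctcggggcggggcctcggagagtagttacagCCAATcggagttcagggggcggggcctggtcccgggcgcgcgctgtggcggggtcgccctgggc
Acsm3, chr7:119760773-119760922: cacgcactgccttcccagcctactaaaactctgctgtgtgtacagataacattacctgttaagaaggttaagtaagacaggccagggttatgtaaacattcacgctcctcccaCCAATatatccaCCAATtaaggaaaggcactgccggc

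The Strip2 and the Acsm3 stretch each held 2 CCAAT boxes and the Cdsn stretch held none. In the 250 bases before the start, 33.8% of the 32851 mouse promoters searched in the same way held CCAAT or its reverse complement. No window of the 3 genes held AGGTCA on either strand (14.0% of all promoters did) or TATAAA (12.4%). At best 4 of the 12 letters of the DR1 were mismatched before the Cdsn and Strip2 starts, where 74.5% of all promoters matched as well or better, and 5 before the Acsm3 start (99.6%). RefSeq lists a second Cdsn start farther upstream that is not in the gene model used for its position here, and there the best match had 3 mismatches (21.3%). The windows of Cdsn and Strip2 were rich in G and C, at 64.0% and 62.0%, against 49.2% for Acsm3.

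The libraries held 16553324 to 20324286 counts, the 4 largest being those of WT. Pparg was at 354 ± 19.9 CPM in WT, 374 ± 46.1 in TA and 237 ± 24.2 in TD (SD, n = 4 each). The mRNA of the mutated receptor was thus lower in TD (log2 fold change -0.58, adjusted p = 0.000429 against WT by edgeR). Reads per gene do not show the substitution itself. Adipocyte markers were abundant in all libraries, with 13 markers (among them Adipoq, Fabp4 and Plin1) summing to 24359 to 27651 CPM in WT, 22356 to 29468 in TA and 16839 to 19208 in TD. The 14 preadipocyte and fibroblast markers summed to 10718 to 14293 CPM in WT, 12072 to 21689 in TA and 18669 to 27453 in TD, and the 10 skeletal muscle markers to 5.55 to 12.9, 19.1 to 72.3 and 19.0 to 271 CPM. The part of these shifts in the results on the 3 genes was not tested. Levels relative to the adipocyte markers are given below, but some of these markers, among them Fabp4, Lpl, Adipoq, Plin1 and Cidec, are also PPAR targets. On that scale a change in the share of adipocytes and a change in the activity of the mutated receptor cannot be told apart. In bulk RNA fewer cells of a type and less RNA per cell cannot be told apart either.

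Cdsn was highest in WT, at 21.9, 12.7, 19.8 and 23.4 CPM in replicates 1 to 4. In TD it was at 3.97, 5.23, 4.58 and 4.05 CPM, and in TA at 0.702, 1.17, 0.724 and 0.778 CPM, the latter from only 12 to 19 counts per library. The 3 genotypes thus formed 3 separate bands, with no library of one inside the range of another. The means were 19.4 ± 4.75 CPM in WT, 0.843 ± 0.219 in TA and 4.46 ± 0.581 in TD (SD, n = 4 each).

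From WT to TA, the comparison that selected it, Cdsn was 23.0-fold lower (log2 fold change -4.52, SE 0.229), the largest fall among all 15117 genes tested. Over all genes tested, 4.41% were called lower in this comparison, 6.72% were called higher, and 5.85% were lower with no overlap between libraries. In TD, Cdsn was at 22.9% of its WT mean. The TD fall was 2.12 on the log2 scale below WT (-2.12, SE 0.186, 95% interval -2.51 to -1.73, adjusted p = 1.28e-05 by edgeR's quasi-likelihood test). TD also stood above TA, by 2.40 on the log2 scale (SE 0.243, 95% interval 1.89 to 2.92, adjusted p = 1.03e-05), a 5.29-fold difference.

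Strip2 had the lowest level per exon length of the 3 genes in each genotype, as given below. WT replicates 1 to 4 had 7.99, 9.29, 6.54 and 11.3 CPM, TD replicates 6.02, 5.66, 3.78 and 3.34 CPM, and TA replicates 1.75, 1.48, 1.39 and 0.500 CPM. Here too no libraries of different genotypes overlapped, but the gap between the lowest WT and the highest TD library was narrow. The lowest TA value, in replicate 4, came from 9 counts.

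Means for Strip2 were 8.79 ± 2.04 CPM in WT, 1.28 ± 0.543 in TA and 4.70 ± 1.34 in TD (SD, n = 4 each). From WT to TA, the comparison it was selected on, it was 6.86-fold lower (log2 fold change -2.78, SE 0.298). In TD it stood at 53.5% of the WT mean, with a log2 fold change of -0.90 (SE 0.260, 95% interval -1.45 to -0.35, adjusted p = 0.0159 by edgeR). This call was lost when WT replicate 4 (-0.76, adjusted p = 0.0600), TD replicate 3 (-0.81, 0.0539) or TD replicate 4 (-0.77, 0.0580) was left out of the edgeR fit. Against TA, Strip2 in TD was 3.67-fold higher (log2 fold change 1.88, SE 0.304, 95% interval 1.23 to 2.52, adjusted p = 0.000688), and this call held without any one library.

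Acsm3 varied more within WT and within TA than the other 2 genes. Its WT replicates 1 to 4 were at 33.4, 17.9, 13.6 and 24.0 CPM, its TD replicates at 5.62, 5.82, 4.47 and 4.16 CPM, and its TA replicates at 1.52, 5.35, 1.56 and 2.95 CPM. All WT libraries lay above all TA and TD libraries, whereas TA and TD overlapped, because TA replicate 2 reached the TD range and the other 3 TA libraries stayed below it. Its coefficient of variation was 38.7% in WT, 63.2% in TA and 16.4% in TD, beside 23.2%, 42.4% and 28.4% for Strip2, and Cdsn varied less than Acsm3 in each genotype.

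The Acsm3 means were 22.2 ± 8.59 CPM in WT, 2.84 ± 1.80 in TA and 5.02 ± 0.824 in TD (SD, n = 4 each). From WT to TA, the comparison that chose it, the level was 7.86-fold lower (log2 fold change -2.97, SE 0.335). TD stood at 22.6% of WT, a log2 fold change of -2.14 (SE 0.313, 95% interval -2.81 to -1.48, adjusted p = 0.000209 by edgeR). Between the mutants the difference did not pass the test (TD against TA, 0.83, SE 0.351, adjusted p = 0.117 by edgeR), and its 95% interval, not adjusted for the number of genes, ran from 0.09 to 1.57. Without TA replicate 2 it was 1.32 with an adjusted p of 0.0175 by edgeR.

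**Figure D1:**
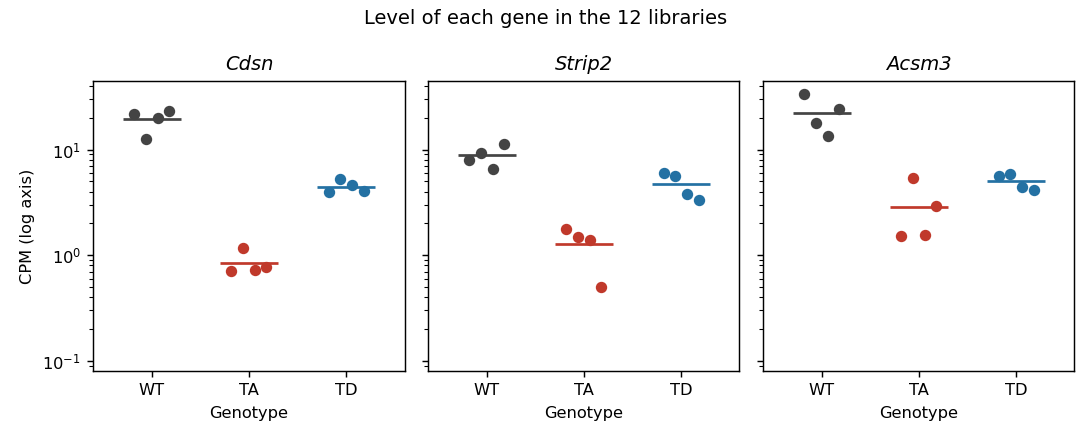
CPM on a log axis of Cdsn, Strip2 and Acsm3 in each library, by genotype, where points are libraries in replicate order and horizontal lines are means of 4 libraries. Means run from 19.4 (WT) over 4.46 (TD) to 0.843 (TA) for Cdsn, in the same order for the other 2 genes, and for Acsm3 TA replicate 2 at 5.35 lies among the TD libraries.

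The fall from WT to TD passed the test for all 3 genes, and each TD mean lay between the TA and the WT mean. Of the 15117 genes 14.2% were called lower in this comparison, 15.1% were called higher, and 16.4% were lower with no overlap. Between the mutants 7.33% were called higher in TD than in TA, 9.37% were called lower, and 9.32% were higher with no overlap, as were Cdsn and Strip2. With library totals in place of TMM the calls between the mutants shifted from 1108 higher and 1416 lower to 1802 and 982, and those of TD against WT from 2276 and 2142 to 2840 and 1558, while the 3 genes kept their directions and calls. The comparison of TD with WT shares its WT libraries with the choice of the genes and that of TD with TA shares its TA libraries, so neither is independent of the choice. An exact permutation test over libraries (two-sided, 4 against 4) gave p = 0.0286 for each gene against WT and for Cdsn and Strip2 against TA, the smallest p this design allows, and p = 0.0857 for Acsm3 against TA.

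The measured share of the TA fall that was also present in TD ranged widely. On the log2 scale the fall in TD was 72.1% of the fall in TA for Acsm3, 46.9% for Cdsn and 32.4% for Strip2. These shares are set side by side with no test between the genes. They are divided by the TA falls that chose the genes, and both falls use the same WT libraries. TA retained 4.34% of the WT level of Cdsn, 14.6% of that of Strip2 and 12.8% of that of Acsm3.

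Per length of transcript, as CPM divided by the exon length in kilobases (RPKM), WT adipocytes had 7.26 RPKM of Cdsn, 4.50 of Acsm3 and 1.06 of Strip2, beside 120 RPKM of Pparg. Cdsn was thus above 65.2% of the tested genes in WT, Acsm3 above 53.5% and Strip2 above 25.8%. In TD the order was the same, at 1.66, 1.02 and 0.564 RPKM. In TA it was changed, with Acsm3 at 0.576 RPKM above Cdsn at 0.315 and Strip2 at 0.154, and Cdsn was then above 9.84% of the tested genes. The exon length of Acsm3 includes 1962 bases shared with Eri2 on the opposite strand. The strand setting of the counting is not given, so how many reads of these bases were counted for Acsm3 is uncertain. Its RPKM, and its place relative to Cdsn in WT and TD and among the tested genes, are uncertain as well.

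Measured against the summed adipocyte markers of the same library, a scale added after the data had been seen, Cdsn in TD remained lower than in WT by 1.59 on the log2 scale (difference -1.59) and Acsm3 by 1.57 (-1.57), again with no overlap (exact permutation test, p = 0.0286 each). Strip2 was lower by 0.41 (-0.41), the TD and WT ranges overlapped, and the exact permutation test gave p = 0.171. On this scale all 3 genes were higher in TD than in TA with no overlap, by 2.94 for Cdsn, 2.49 for Strip2 and 1.52 for Acsm3 (exact permutation test, p = 0.0286 each). The marker sum had a mean of 18289 CPM in TD, against 26158 in TA and 25994 in WT. Dividing by it thus moved every gene up in TD relative to both. Acsm3 overlapped between the mutants in CPM. The share of all genes tested with no overlap on the marker scale was not computed, and the TA libraries had served to choose the genes. The lack of overlap between the mutants on this scale is therefore not read as particular to the 3 genes. From WT to TA the differences on this scale were -4.53, -2.90 and -3.09, against -4.52, -2.89 and -3.09 for log2 CPM itself. Of the 3 falls in TD, that of Strip2 was thus the one that did not pass a test on this scale.

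The families and complexes to which the 3 genes belong were looked at next, and since the 3 genes were picked for the largest falls in TA, smaller TA falls in their relatives follow from the choice. Among the short- and medium-chain acyl-CoA synthetases, 6 genes other than Acsm3 were tested. Its nearest relatives were hardly present, since Acsm1 and Acsm4 had at most 3 counts in any library, Acsm2 had at most 11, and Acsm5, at 1.83 CPM in WT and 2.08 in TA, was called in no comparison. In TA against WT, Acsf2 was higher (0.41, adjusted p = 0.0134 by edgeR), Acsf3 lower (-0.40, adjusted p = 0.0130; 6.72% and 4.41% of all genes tested were called so), and 4 were not called, including the acetyl-CoA synthetase Acss1 (-0.64, adjusted p = 0.0739).

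In TD against WT, 3 of these 6 synthetases were lower, namely Acss1 (-0.96), Acsf3 (-0.39) and Acss3 (-0.36), and none was higher (14.2% and 15.1% of all genes tested). The median over the 6 was -0.30, beside 0.01 over all genes tested, and Acsm3 at -2.14 lay outside their range. A list on the oxidation of acyl-CoA and the carnitine cycle held 14 genes, all tested. Among them were Acadm, the medium-chain acyl-CoA dehydrogenase, Crat, the carnitine acetyltransferase, and Slc25a20, the carnitine-acylcarnitine carrier. In TD, 12 of the 14 were lower than in WT (median -0.55), beside 14.2% of all genes tested, and 12 were lower than in TA, beside 9.37%. In TA 1 of the 14 was lower than in WT, the carnitine transporter Slc22a5 (-0.37, adjusted p = 0.0255 by edgeR), a share near the 4.41% of all genes tested. Acadm, for instance, was at 483 CPM in WT, 531 in TA and 348 in TD.

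In the STRIPAK complex few genes were called. Of 16 other STRIPAK genes tested, Stk24, an MST-family kinase, was lower in TA than in WT (-0.28, adjusted p = 0.0407 by edgeR), a share near the 4.41% of all genes tested, and 15 were not called. In TD against WT the striatin Strn4 was higher (0.23) and the PP2A scaffold Ppp2r1b was lower (-0.45), beside 15.1% and 14.2% of all genes tested, and 14 were not called. Against WT, the 16 genes had a median of -0.00444 in TA and of -0.05 in TD, beside -0.01 and 0.01 over all genes tested.

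The junction and cornified-layer genes that accompany Cdsn in skin were mostly at few counts. Of 14 desmosomal genes 4 passed the filter on low counts, and the desmosomal cadherins Dsg1a, Dsg1b, Dsg3 and Dsc3 had at most 3 counts in any library. Dsc1 and Dsg2 had at most 5. The cadherin Dsc2, not tested and at most at 18 counts, had means of 0.517 CPM in WT, 0.143 in TA and 0.316 in TD. Its TA libraries overlapped neither WT nor TD, while WT and TD overlapped. Of the corneodesmosome proteases and their inhibitors, 8 in all, Klk8 alone was tested, and it was called in no comparison (TA against WT, -1.16, adjusted p = 0.117 by edgeR). Of the 12 cornified envelope genes 6 were tested, and Lor, Flg and Krt2 had no counts in any library. Cdsn was thus counted in cultures with few or no reads of the cadherins and proteases known beside it in epidermis.

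Of the 4 desmosomal genes tested, Pkp2 (plakophilin 2) was lower in TA (-1.28) and in TD (-0.99) than in WT, with means of 15.1, 6.23 and 7.61 CPM in WT, TA and TD. Unlike Cdsn, it was not called between the mutants (TD against TA, 0.29, adjusted p = 0.267 by edgeR). Jup (plakoglobin) was lower in TA than in WT (-0.66, adjusted p = 0.000831 by edgeR) and not called in TD against WT. Between the mutants Jup was higher in TD (0.82, adjusted p = 0.000146 by edgeR), as Cdsn was. Pkp1 moved the other way, higher in TA (2.85) and in TD (1.38) than in WT, from 0.294 CPM in WT. Between the mutants Pkp1 was lower in TD (-1.47). Among the cornified envelope genes, Sbsn (suprabasin) was lower in TA than in WT (-0.94) and not called in TD against WT. Ppl (periplakin) was higher in TD than in WT (0.83). Both were higher in TD than in TA (0.79 for Sbsn and 0.57 for Ppl). Over all genes tested, 4.41% were called lower and 6.72% higher in TA, and 14.2% and 15.1% in TD, each against WT. In TD against TA 9.37% were called lower and 7.33% higher.

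Keratinocyte markers were at low levels. The 10 markers summed to 4.01 to 5.26 CPM in WT, 7.13 to 8.77 in TA and 5.96 to 7.15 in TD. Of the 4 tested, 1 was called, Trp63, which was higher in TA (1.64) and in TD (1.03) than in WT. Over all genes tested 6.72% and 15.1% were called higher. Krtdap, not tested, was lower in TD (0.292 CPM) than in WT (0.500 CPM) with no overlap, and at 0.471 CPM in TA. Whether RNA of keratinocytes took part in the level of Cdsn was not tested. Dsg3 and Lor were at or near 0 in all libraries. Simple epithelium markers (7 genes) summed to 1.35 to 2.53 CPM in WT, 0.585 to 4.40 in TA and 2.73 to 5.98 in TD, and mesothelium markers (4 genes) to 0.415 to 1.49, 0.702 to 1.39 and 1.08 to 2.53 CPM.

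**Figure D2:**
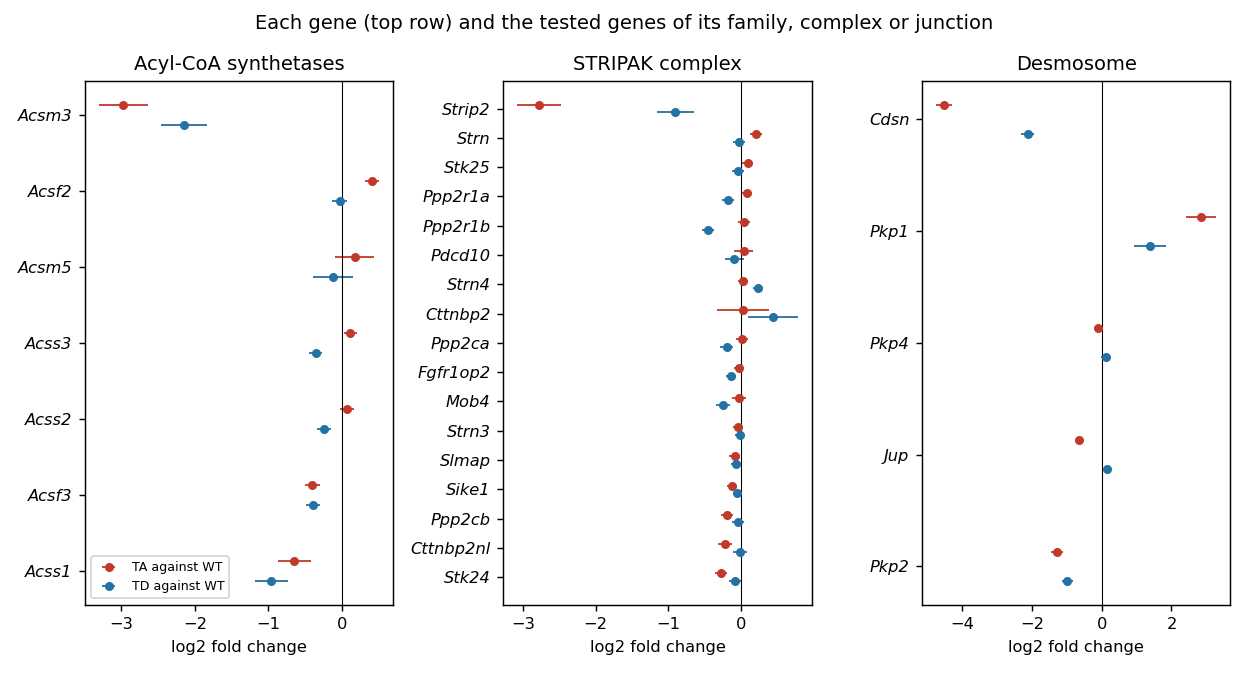
Log2 fold change against WT (horizontal axis, edgeR fit, bars are SE) in TA (red) and TD (blue) for Acsm3, Strip2 and Cdsn, each in the top row, and for the tested genes of the acyl-CoA synthetases, the STRIPAK complex and the desmosome. The top rows reach -2.97, -2.78 and -4.52 in TA, while the other STRIPAK genes lie between -0.28 and 0.21 in TA, and the desmosomal genes spread from -1.28 to 2.85.

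Of the known PPAR targets and adipocyte markers tested, Lep, which encodes leptin, had the order of means of the 3 genes, at 127 CPM in WT, 105 in TD and 63.8 in TA. Of 18 PPAR target genes tested, 6 were higher in TA than in WT, with Gpd1, the glycerol-3-phosphate dehydrogenase, the highest (1.41), and 1 was lower, Pck1 (-2.16), the enzyme of glyceroneogenesis (6.72% and 4.41% of all genes tested). In TD, 16 of the 18 were lower than in WT and 1 was higher (14.2% and 15.1% of all genes tested). Of 13 adipocyte markers, 11 were lower in TD than in WT, while in TA 1 was higher (Cidec, 0.50) and 1 lower (Lep, -0.99, and 0.72 higher in TD than in TA). In TA the 3 genes were thus low in cultures whose PPAR targets as a list had a median of 0.17 against WT.

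Markers of other cells gave the following counts. Of 13 preadipocyte and fibroblast markers tested, 11 were higher in TD and 7 in TA than in WT, beside 15.1% and 6.72% of all genes tested. The endothelial markers were higher for 7 of 8 in TD and 4 of 8 in TA, the skeletal muscle markers for 9 of 9 and 5 of 9, and of 8 macrophage markers none was called against WT in either mutant (edgeR, adjusted p under 0.05), at sums of 272 to 797 CPM in WT, 133 to 580 in TA and 612 to 854 in TD. Whether RNA from such cells took part in the levels of Cdsn, Strip2 and Acsm3 was not tested.

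The genes next to Cdsn, Strip2 and Acsm3 on their chromosomes were listed without regard to their values. For comparison, 4.41% of all genes tested were called lower and 6.72% higher in TA than in WT. In TD these shares were 14.2% and 15.1%. Of the 3 protein-coding genes on each side of Cdsn, 2 were tested, Tcf19 and Cchcr1, and both were higher in TD than in WT (0.56 and 0.39) and not called in TA. Around Strip2 all 6 were tested, and Ahcyl2, which ends 4702 bases away, had a log2 fold change of -0.13 in TA (adjusted p = 0.295 by edgeR) and -0.21 in TD (adjusted p = 0.0480). Tspan33, at 0.656 CPM in WT, had a log2 fold change of -0.84 in TD, close in size to the -0.90 of Strip2 but not called (adjusted p = 0.249 by edgeR). Smo was the neighbour called in TA against WT, where it was higher (0.23).

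Next to Acsm3 4 of 6 genes were tested, the others being Acsm1 and Acsm4. Rexo5, an RNA exonuclease gene 6493 bases away, was lower in TA (-0.58, adjusted p = 0.0111) and in TD (-0.56, adjusted p = 0.00624) than in WT by edgeR, and Thumpd1 was lower by about the same amount in both mutants (-0.34 and -0.36). Dcun1d3 was lower in TD (-0.41) and not called in TA. Of all genes tested 4.41% were called lower than in WT in TA and 14.2% in TD. Eri2 lies on the opposite strand and shares 1962 exon bases with Acsm3, and the strand setting of the counting is not given in the sources used here, so the split of reads between them is uncertain. Its mean counts were 312 in WT, 248 in TA and 241 in TD, beside 429, 48.5 and 90.5 for Acsm3, and Eri2 was called in no comparison (TA against WT, -0.16).

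**Figure D3:**
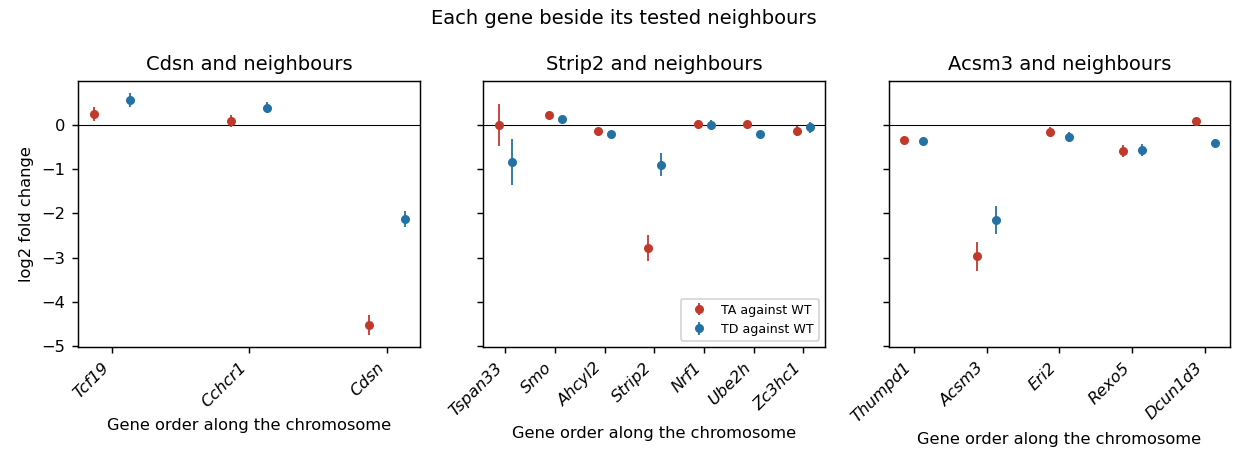
Log2 fold change against WT (vertical axis, edgeR fit, bars are SE) in TA (red) and TD (blue) for each of the 3 genes and its tested protein-coding neighbours, in their order along the chromosome and not to scale in distance. The neighbours lie between -0.84 and 0.56, and the 3 genes reach -4.52, -2.78 and -2.97 in TA.

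Across the 12 libraries the log2 CPM of Cdsn and Acsm3 had a Pearson correlation of 0.93, Cdsn and Strip2 one of 0.91, and Strip2 and Acsm3 one of 0.80. These values describe libraries that fall into 3 genotypes and share their depth between the genes, and the choice of the genes fixed much of them. With the mean of each genotype taken away, the correlations were 0.64, 0.09 and 0.03. The value of 0.64 for Cdsn and Acsm3 includes TA replicate 2, which was the highest TA library for both and the second for Strip2. The correlation without that library was not computed. In WT, replicate 3 was the lowest for Acsm3 (13.6 CPM) but not for Cdsn, at 19.8 CPM against 12.7 in replicate 2. Whether the 2 genes vary together within a genotype was not tested.

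The genes whose profile over the 12 libraries was most like that of Cdsn were Tbc1d2 (r = 0.977), Itih5 (0.976), Tsku (0.975), Aldh1a7 (0.970) and Dysf (0.963). Itih5, a secreted inter-alpha-trypsin inhibitor chain, had means of 61.0 CPM in WT, 14.5 in TA and 31.5 in TD, ordered as Cdsn was and with a smaller fall. For Strip2 they were B4galt6 (0.950), Tmem43 (0.949), Isoc1 (0.944), Fgf2 (0.939) and Wwc2 (0.937). Fgf2, a fibroblast growth factor, had 64.1 CPM in WT, 35.1 in TA and 47.1 in TD.

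For Acsm3 the nearest profiles were those of Alad (0.989), Nectin2 (0.965), Calcoco1 (0.963), Sdr39u1 (0.961) and the desmosomal Pkp2 (0.960). Alad, which encodes the second enzyme of heme synthesis, had 36.9 CPM in WT, 18.2 in TA and 22.2 in TD. With the genotype means taken away, its correlation with Acsm3 was 0.94. For the nearest profiles of Cdsn and Strip2, Tbc1d2 and B4galt6, that value was 0.45 and 0.69. All these genes were picked by the correlation over the 12 libraries, which includes the deviations within genotypes. The values without genotype means are therefore not independent of that choice.

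**Figure D4:**
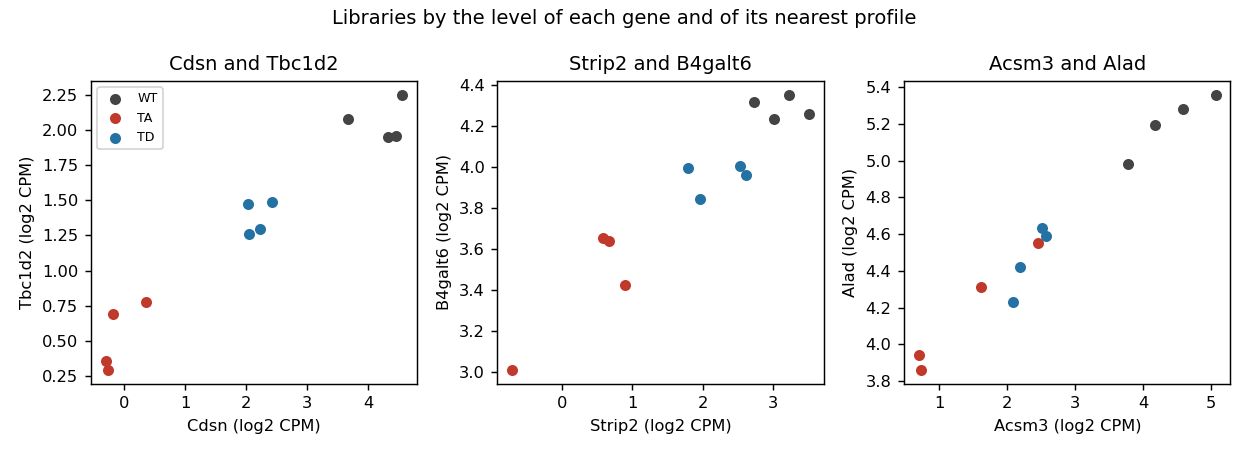
Log2 CPM (edgeR, prior count of 2) of Cdsn, Strip2 and Acsm3 (horizontal axes) and of the gene with the nearest profile (vertical axes), with 1 point for each of the 12 libraries, coloured by genotype. Pearson correlations are 0.977, 0.950 and 0.989, and each nearest gene was picked by this value. With the genotype means taken away they are 0.45, 0.69 and 0.94.

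Just outside the choice lay Sncg (gamma-synuclein), Lctl and Itih5, with log2 fold changes of -2.36, -2.09 and -2.07 from WT to TA, against -2.78 for Strip2, the member with the smallest fall. By the fall alone, with no minimum level and no rule on overlap, Cdsn ranked 1, Acsm3 3 and Strip2 5 among the genes tested.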

How the data were processed

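Libraries of WT, TA and TD adipocytes, 4 each, were grouped by their labels. The authors deposited raw counts per gene, without normalization, as 1 table and as 12 single-library files that held equal values. Per the submitters' processing notes the reads passed through bcl2fastq 2.17.1.14, cutadapt 1.9.1, HISAT2 2.0.1 and HTSeq 0.6.1 on GRCm38, and the strand setting is not given in the sources used here. The genes named were the 3 members, Pparg, the 3 genes next in the order of falls in TA, genes of the lists on the members' families and partners, the largest rise and fall in other lists, 3 annotated neighbours on each side of each member and its 5 nearest profiles. The members and the 15 gene lists were chosen with earlier results of these data known.

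Counts were normalized by TMM and fitted with edgeR 4.0.16 in R 4.3.3 (quasi-likelihood test, two-sided) on all 12 libraries. The filterByExpr filter (count of 10, total of 15) kept 15117 of 55573 genes, over which the Benjamini-Hochberg adjustment was made, and an adjusted p under 0.05 counted as a call. CPM are counts scaled to the normalized library size, and RPKM divide them by the exon length in GENCODE M21, in which 55394 identifiers (99.7%) were found. Promoters came from RefSeq (GRCm38.p6), and all 3 genes matched. Correlations used log2 CPM with a prior count of 2. Replicates were checked for repeated libraries by a chi-square of their counts, and all 18 pairs differed by more than sampling noise (4.95 to 38.7 per degree of freedom). Scripts were tested on simulated counts. Alternatives were DESeq2 1.42.0, other normalizations and filters, a fit of the genotypes compared alone, a replicate block, a fold limit and leaving out each library. Intervals are at 95%, and they cover the spread between libraries as they are, which the labels do not tie to separate mice. A gene of the STRIPAK list is not reported here, and the paper's other experiments were not analysed here.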

Additional observations from a re-analysis of the deposited data

Results flagged for a closer look

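Cdsn in TA replicate 2, at 1.17 CPM, lay above the other TA libraries (0.702, 0.724 and 0.778 CPM) by a gap that took 0.837 of the group's range, past the 95% limit of Dixon's test for 4 samples. It rested on 19 counts, against 12, 13 and 14 in the other libraries. The exact 95% Poisson interval of its count, 11.4 to 29.7, overlapped those of the others (6.20 to 21.0, 6.92 to 22.2 and 7.65 to 23.5). This was 1 of 9 groups tested, and chance alone marks about 1 in 20. TA replicate 2 was also the highest TA library for Acsm3 (5.35 CPM) and for Pparg (428 CPM). Without it the log2 fold change of Cdsn from WT to TA was -4.72.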

How the results depend on the processing

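Cdsn kept its direction and its calls in TD against WT and in TD against TA, Strip2 in TD against TA and Acsm3 in TD against WT, under every alternative that gave a value. With each library left out in turn, Strip2 in TD against WT ran from -1.04 to -0.76 (largest adjusted p 0.0600 by edgeR, lost without WT replicate 4, TD replicate 3 or TD replicate 4), and Acsm3 in TD against TA from 0.62 to 1.32 (largest adjusted p 0.268). Relative to the summed adipocyte markers, chosen after seeing the data, Strip2 in TD against WT was -0.41 and Acsm3 in TD against TA was 1.52. With no filter on low counts Acsm3 in TD against TA was 0.84 and called (adjusted p = 6.17e-05 by edgeR); the cause was not tested. Genes called numbered 4418 in TD against WT, 2524 in TD against TA and 1683 in TA against WT, and with a fold change above 2 also required they were 795, 362 and 424, fewer by construction. Leaving out 1 library gave 3121 to 4705, 1422 (without TA replicate 2) to 3526 and 1160 to 1939. Strip2 had no value where at least 10 counts in every library were required, since TA replicate 4 had 9. Replicate numbers did not pair the libraries (correlations of deviations -0.24 to 0.20 for equal numbers, -0.26 to 0.26 for unequal), and with a replicate block the calls stayed, with Strip2 in TD against WT at -0.94 and Acsm3 in TD against TA at 0.87 (adjusted p = 0.0841 by edgeR). Depth limits TA most, where Cdsn and Strip2 rest on 9 to 30 counts per library.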
